A study of Mus musculus with 8 samples.

Results

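Tumours in obese mice carried more RNA for making and importing creatine and less for the non-muscle kinases that use it. The genes described are the 2 enzymes of creatine synthesis (Gatm and Gamt), the creatine transporter (Slc6a8) and the 2 creatine kinases of non-muscle tissue (Ckb and Ckmt1). They were chosen by symbol and matched through GENCODE M21 to 5 of the 50143 Ensembl gene IDs of the count file, and all 5 passed the filter on low counts. The 8 tumours came from Py230, a single mouse breast adenocarcinoma line injected into mammary gland 4 of female C57BL/6 mice and removed at day 56. All mice had been ovariectomized at 6 weeks of age, so both groups lacked ovaries. From 2 weeks after surgery, the mice of the 4 obese tumours received a high-fat diet of 5.1 kcal/g with 60% of calories from fat for 6 weeks and gained 35% in body weight on average. The mice of the 4 lean tumours received a regular diet of 3.6 kcal/g with 10% of calories from fat for the same time.

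Creatine is made in 2 steps. Gatm, a mitochondrial amidinotransferase, joins arginine and glycine to guanidinoacetate and releases ornithine. Gamt then methylates guanidinoacetate with S-adenosylmethionine to give creatine. Slc6a8 brings creatine in from the blood together with sodium and chloride. Creatine kinases move phosphate between ATP and creatine: Ckb works in the cytosol and Ckmt1 between the mitochondrial membranes, next to where ATP leaves. Muscle has isozymes of its own, Ckm in the cytosol and Ckmt2 in mitochondria. Ckb is also long known as a protein that oestrogen induces in the uterus.

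The windows before the starts of both synthesis genes and both kinases are shown because the 2 pairs moved in opposite directions. RefSeq promoters were found for 4 of the 5 genes, all but Slc6a8. Each run is the 250 bases before the start that RefSeq gives, read 5′ to 3′ on the gene's strand, with CCAAT boxes (CCAAT), TATA boxes (TATAAA) and GC boxes (GGGCGG) in capitals on either strand. For Ckmt1, which has 2 starts in the table, the upstream window is shown. RefSeq and GENCODE starts differ for 2 of the genes: 26 bases of the Gatm window and 62 bases of the Ckmt1 window lie inside the GENCODE genes whose coordinates are given below, so distances count from the RefSeq start.
Gatm (GRCm38.p6 chr2:122611278-122611527, minus strand): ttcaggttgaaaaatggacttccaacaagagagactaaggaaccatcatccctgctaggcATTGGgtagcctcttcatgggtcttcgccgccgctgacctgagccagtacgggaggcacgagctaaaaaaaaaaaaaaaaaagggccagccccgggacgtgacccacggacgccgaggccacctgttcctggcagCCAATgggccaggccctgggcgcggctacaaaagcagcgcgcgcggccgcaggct
Gamt (GRCm38.p6 chr10:80261013-80261262, minus strand): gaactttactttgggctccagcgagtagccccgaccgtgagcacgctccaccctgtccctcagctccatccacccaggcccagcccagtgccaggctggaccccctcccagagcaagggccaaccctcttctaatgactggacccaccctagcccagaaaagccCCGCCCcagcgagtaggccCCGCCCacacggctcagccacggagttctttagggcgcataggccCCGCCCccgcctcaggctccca
Ckb (GRCm38.p6 chr12:111672339-111672588, minus strand): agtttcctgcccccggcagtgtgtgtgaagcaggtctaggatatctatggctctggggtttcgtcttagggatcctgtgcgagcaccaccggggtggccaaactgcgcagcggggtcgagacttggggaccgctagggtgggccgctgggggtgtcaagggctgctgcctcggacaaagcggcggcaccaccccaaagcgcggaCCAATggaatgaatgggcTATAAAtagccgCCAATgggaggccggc
Ckmt1 (GRCm38.p6 chr2:121357526-121357775, plus strand): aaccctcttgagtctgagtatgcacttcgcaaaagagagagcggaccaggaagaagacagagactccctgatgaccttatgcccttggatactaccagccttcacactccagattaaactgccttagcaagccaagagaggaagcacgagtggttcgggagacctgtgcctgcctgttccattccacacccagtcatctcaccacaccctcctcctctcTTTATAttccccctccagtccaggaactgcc

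The 4 windows differed in which of these motifs they held. Gatm held CCAAT 55 to 51 bases before its start and, on the opposite strand, 190 to 186 bases before it. Gamt held no CCAAT or TATA box but GGGCGG on the opposite strand at 86 to 81, 67 to 62 and 22 to 17 bases before its start. Ckb held TATAAA at 28 to 23 bases, between CCAAT at 46 to 42 and at 16 to 12 bases. The window of Ckmt1 held TATAAA on the opposite strand only, 31 to 26 bases before the start. At the other Ckmt1 start, not printed, the window held no TATA box but CCAAT on the opposite strand, 242 to 238 bases before it. Among 32851 windows of this length in the table, 33.8% held CCAAT, 32.7% GGGCGG and 12.4% TATAAA on either strand. The oestrogen response half-site AGGTCA stood on the opposite strand of Gatm at 156 to 151 bases and of Ckmt1 at 179 to 174 bases, and 14% of all windows held it. The core of the hypoxia response element, ACGTG, was found in Gatm at 94 to 90 bases and in 16.6% of all windows; it overlaps the E-box CACGTG, which none of the printed windows held. GC content was 59.2% for Gatm, 66.8% for Gamt, 62.8% for Ckb and 52.8% for Ckmt1. These matches describe letters and show no binding.

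Libraries held 25.7 to 66.7 M counts. The genome-wide background was large: of 14887 genes tested, 59.2% differed between obese and lean tumours at an edgeR adjusted p under 0.05, 30.9% higher and 28.4% lower, and in 57.0% the groups did not overlap. All 5 creatine genes passed this threshold, 3 higher and 2 lower in obese tumours, and the groups did not overlap in 4 of them. These are 5 chosen genes, read against that background, and nothing particular to them follows from the count. Obese replicate 3 stood apart: in a principal component analysis of the 1000 most variable genes it lay at 12.9 on component 1 (88.6% of variance), the other obese tumours between -136 and -96.5 and the lean tumours between 70.2 and 93.7. The creatine genes and the counts of each pathway list are therefore given with and without it. Without it, 64.8% of 15184 genes passed the threshold, and again all 5 creatine genes, 3 higher and 2 lower. The labels do not say whether each tumour came from its own mouse, so p-values measure the spread between these tumours. In bulk tumours, fewer cells of a type and less RNA per cell cannot be told apart.

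**Figure D1:**
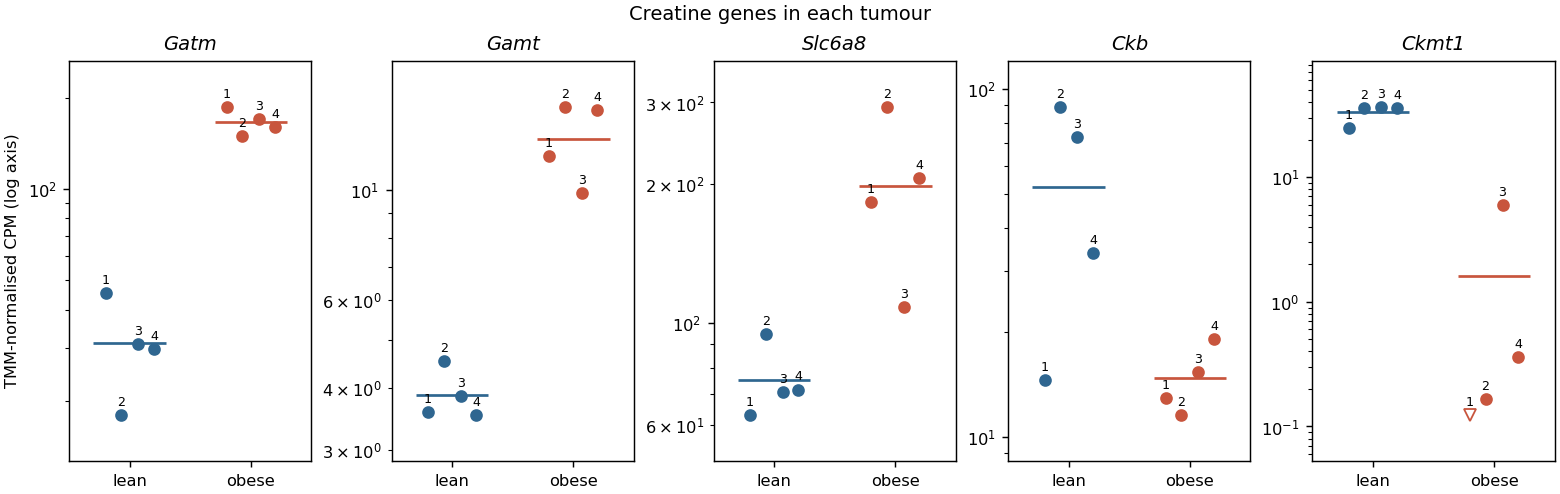
Expression of the 5 creatine genes in each of the 8 tumours, as TMM-normalised counts (CPM, scaled to 1 M counts per library) on a log axis; each point is 1 tumour with its replicate number, bars are group means, and the open triangle marks a count of 0 drawn at 3 counts (0.124 CPM). Gatm, Gamt and Slc6a8 are higher in all 4 obese tumours than in any lean one, Ckmt1 is lower, and for Ckb lean replicate 1 lies among the obese tumours.

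Gatm, the first and rate-controlling enzyme of the pathway, rose most of the 3 that rose. The gene (ENSMUSG00000027199) lies at chr2:122594467-122611303 on the minus strand of GRCm38. Its levels in obese replicates 1 to 4 were 186, 149, 170.4 and 160.4 CPM (counts scaled to 1 M per library, with TMM factors), and in lean replicates 1 to 4 they were 45.4, 18.0, 30.7 and 29.7 CPM. The lowest obese tumour exceeded the highest lean one by more than the whole spread of either group. The means were 166 ± 15.7 CPM in obese and 31.0 ± 11.2 CPM in lean tumours (SD, n = 4 each), a log2 fold change of 2.43 ± 0.26 (SE) with an edgeR adjusted p of 0.000396. Obese tumours were alike, with a coefficient of variation of 9.44%, against 36.3% in lean tumours. Without obese replicate 3 the log2 fold change was 2.42.

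Gamt, the methyltransferase of the other step, rose as well, from a lower level. The gene (ENSMUSG00000020150) lies at chr10:80258151-80261012 on the minus strand. Obese tumours held 11.7, 14.7, 9.86 and 14.5 CPM, and lean tumours held 3.58, 4.54, 3.86 and 3.53 CPM. Every obese tumour was above every lean tumour. The means were 12.7 ± 2.33 and 3.88 ± 0.464 CPM (SD, n = 4 each), a log2 fold change of 1.71 ± 0.22 (SE; edgeR adjusted p 0.000826). Without obese replicate 3 it was 1.82.

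Slc6a8, the transporter, rose in obese tumours with more spread among them. The gene (ENSMUSG00000019558) lies at chrX:73673150-73682502 on the plus strand. Obese tumours held 183, 293, 108 and 206 CPM, and lean tumours held 63.2, 94.5, 70.8 and 71.7 CPM. Obese replicate 3 was the lowest of its group and still above lean replicate 2, the highest lean tumour. The means were 197 ± 76.1 and 75.0 ± 13.5 CPM (SD, n = 4 each), a log2 fold change of 1.40 ± 0.29 (SE; edgeR adjusted p 0.00511), and without obese replicate 3 it was 1.61.

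Ckb, the cytosolic kinase, fell, and its lean tumours varied widely. The gene (ENSMUSG00000001270) lies at chr12:111669361-111672338 on the minus strand. Obese tumours held 13.0, 11.6, 15.4 and 19.2 CPM, and lean tumours held 14.6, 88.7, 72.8 and 33.9 CPM. Lean replicate 1 lay inside the obese range, while the other 3 lean tumours lay above it. The means were 14.8 ± 3.29 and 52.5 ± 34.2 CPM (SD, n = 4 each), a log2 fold change of -1.83 ± 0.52 (SE; edgeR adjusted p 0.0173). Leaving out obese replicate 3 gave -1.83 (edgeR adjusted p 0.0259). With offsets for GC content and exon length, Ckb did not pass the test (log2 fold change -1.43, edgeR adjusted p 0.0678). The pseudogenes Ckb-ps1 and Ckb-ps2, which resemble it, had a count of 0 in every library.

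Ckmt1, the mitochondrial kinase, was nearly missing from 3 of the 4 obese tumours. The gene (ENSMUSG00000000308) lies at chr2:121357714-121363737 on the plus strand, 1.23 Mb before the Gatm gene on the same chromosome. Raw counts in obese tumours were 0, 10, 307 and 15, or 0, 0.165, 5.94 and 0.360 CPM, and lean tumours held 24.7, 35.8, 36.4 and 35.6 CPM. A count of 0 in obese replicate 1 allows up to 0.124 CPM, for counting error only. Obese replicate 3 was far above the other obese tumours and below every lean one. The means were 1.62 ± 2.88 and 33.1 ± 5.64 CPM (SD, n = 4 each), a log2 fold change of -4.34 ± 1.41 (SE; edgeR adjusted p 0.0300). Without obese replicate 3 the log2 fold change was -7.41 (edgeR adjusted p 0.000107). The call was lost on leaving out obese replicate 2 (edgeR adjusted p 0.0534) or 4 (0.0685), or lean replicate 2 (0.0536), 3 (0.0551) or 4 (0.0548), with log2 fold changes of -4.36 to -3.94. Ckmt1 shares 10 exon bases with Strc on the opposite strand.

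**Figure D2:**
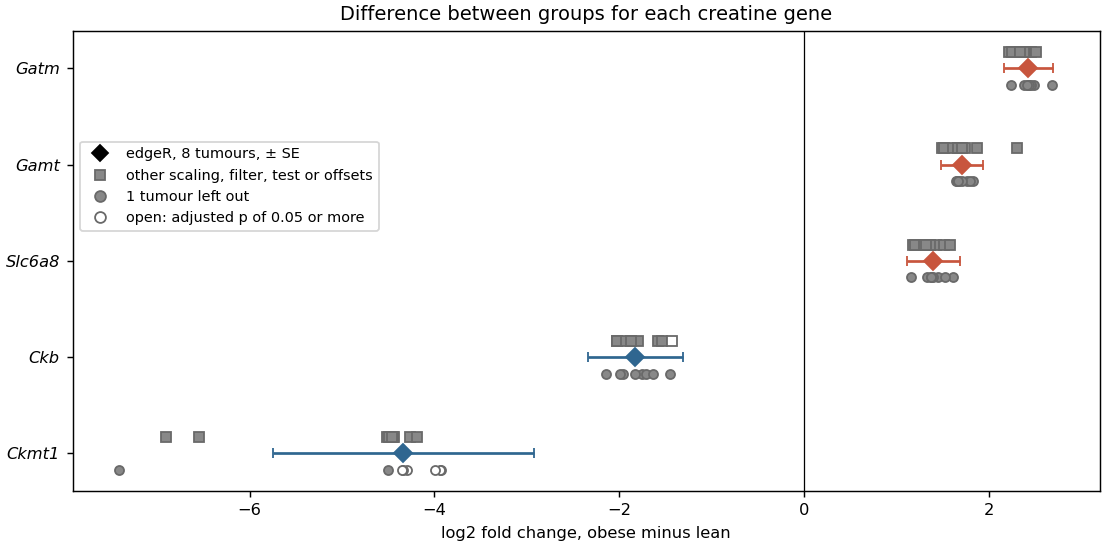
Log2 fold change (obese minus lean) of each creatine gene: diamonds with bars are the edgeR estimate over 8 tumours ± SE, squares are other scalings, filters, tests or offsets, circles leave out 1 tumour, and open symbols have an adjusted p of 0.05 or more. Gatm, Gamt and Slc6a8 stay above 0 and filled throughout, and Ckmt1 spreads from -7.41 to -3.93.

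On a scale per transcript length, synthesis and uptake outweighed the non-muscle kinases in obese tumours. In TPM, counts divided by exon length and scaled to 1 M per library, Gatm stood at 176 ± 12.2 in obese and 34.0 ± 10.5 in lean tumours, Slc6a8 at 121 ± 49.0 and 48.8 ± 13.0, and Gamt at 28.0 ± 5.79 and 9.08 ± 1.88 (SD, n = 4 each). Ckb stood at 16.2 ± 3.77 TPM in obese and 63.0 ± 44.7 TPM in lean tumours, and Ckmt1 at 2.03 ± 3.60 and 44.7 ± 9.71 TPM. By mean TPM the order in obese tumours was Gatm, Slc6a8, Gamt, Ckb and Ckmt1. Among neighbours in that order, Gatm and Slc6a8 overlapped, with 183 TPM for Slc6a8 in obese replicate 2, and Gamt and Ckb overlapped narrowly, at 21.3 TPM for Gamt in obese replicate 3 and 21.4 TPM for Ckb in obese replicate 4. In lean tumours Ckb, Slc6a8, Ckmt1 and Gatm followed each other with overlapping values, and Gamt was lowest in every lean tumour. With the longest transcript's length in place of the exon union, the lean means became 52.0 TPM for Ckmt1 and 48.4 TPM for both Ckb and Slc6a8, and Gamt and Ckb no longer overlapped in obese tumours (lowest Gamt 23.3, highest Ckb 16.3 TPM). The log2 ratio of Gatm to the sum of Ckb and Ckmt1 was 3.78, 3.60, 2.89 and 2.98 in obese tumours and 0.02, -2.91, -1.96 and -1.39 in lean tumours. Gatm exceeded the 2 kinases in all 4 obese tumours, was level with them in lean replicate 1 and was below them in the other lean tumours.

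Within synthesis, Gamt stayed below Gatm in every tumour. The log2 ratio of Gamt to Gatm (TPM) was -2.94, -2.28, -3.06 and -2.41 in obese tumours and -2.61, -0.93, -1.93 and -2.02 in lean tumours. The groups overlapped, through lean replicate 1. The log2 ratio of Slc6a8 to Gatm was -0.82, 0.18, -1.46 and -0.44 in obese tumours and -0.32, 1.60, 0.41 and 0.47 in lean tumours, so these groups overlapped too.

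The muscle isozymes made up most of the kinase RNA in 2 lean tumours. Ckm, the muscle cytosolic kinase, held 0.372, 1.91, 25.3 and 4.13 CPM in obese and 230.0, 2.53, 13.2 and 204 CPM in lean tumours. Lean replicates 1 and 4 were far above the rest, and lean replicates 2 and 3 lay within the obese range. Its log2 fold change was -3.82 ± 1.65 (SE) with an edgeR adjusted p of 0.0761. It passed the test without obese replicate 3 (-5.67, edgeR adjusted p 0.0204) or without lean replicate 2 (-4.23, edgeR adjusted p 0.0477), and by DESeq2 (adjusted p 0.0133). Ckmt2, the muscle mitochondrial kinase, had a log2 fold change of -3.51 ± 1.46 (edgeR adjusted p 0.0673), and passed without lean replicate 2 (0.0378) or 3 (0.0498) and by DESeq2 (0.0140). Leaving out obese replicate 3 gave -4.26 (edgeR adjusted p 0.0547). Ckm shares 451 exon bases with an antisense gene and Ckmt2 shares 84.

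**Figure D3:**
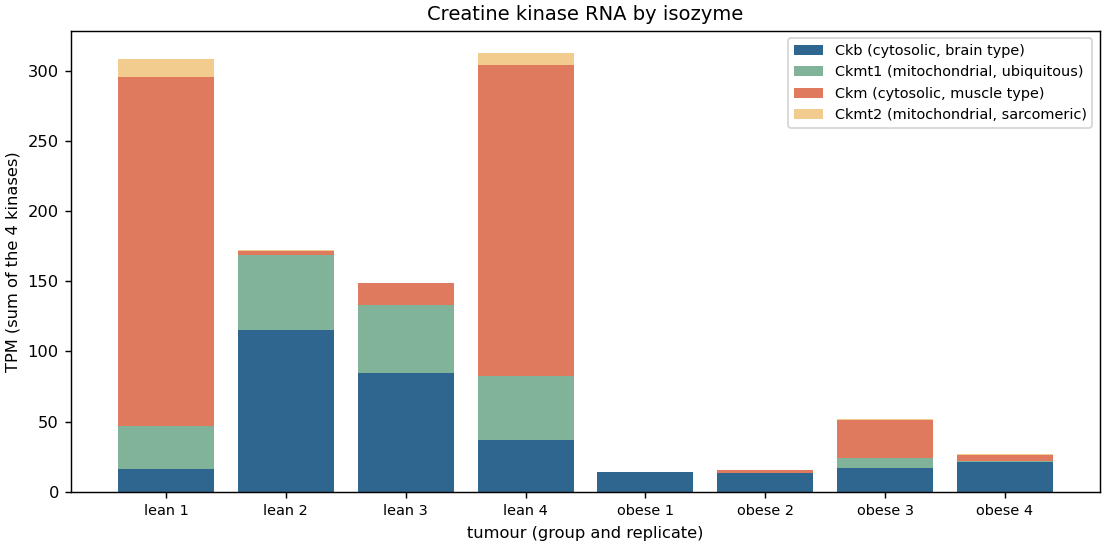
TPM of the 4 creatine kinases stacked for each tumour, in linear units from 0; colours are the isozymes. Lean replicates 1 and 4 reach 308 and 312 TPM mostly through Ckm, and obese tumours reach 14.3 to 52.1 TPM.

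Summed over the 4 kinases, obese tumours held 14.3, 15.6, 52.1 and 27.1 TPM and lean tumours 308, 172, 149 and 312 TPM. Ckb made up 97.2%, 83.6%, 31.8% and 79.2% of that sum in obese tumours and 5.17%, 66.7%, 56.7% and 11.9% in lean tumours. Its share was highest in obese replicates 1, 2 and 4, and in obese replicate 3 Ckm held 52.0%. Ckmt1 made up 0% to 14.3% in obese and 10.1% to 32.9% in lean tumours. Leaving the muscle isozymes out, Ckb and Ckmt1 together stood at 13.9, 13.3, 24.0 and 21.9 TPM in obese tumours and 47.0, 168, 133 and 82.2 TPM in lean tumours, with no overlap.

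Markers of several other cell types differed along with the creatine genes, while no adipocyte marker passed the test. The summed level of 13 skeletal muscle markers was 6.52, 59.5, 270.4 and 92.2 CPM in obese tumours and 1836, 56.1, 157 and 1658 CPM in lean tumours, highest in the same 2 tumours as Ckm. Of these muscle markers, 1 of 13 (7.69%) fell with all tumours, against 28.4% of all genes. Without obese replicate 3, 7 of 13 (53.8%) fell, where 5107 of 15184 genes were lower. The summed level of 9 luminal epithelial markers was 70.7, 283, 844 and 251 CPM in obese tumours and 2676, 1454, 2124 and 2264 CPM in lean tumours, and obese replicate 3 again stood between the groups, as for Ckmt1. Of these luminal markers, 5 of 9 (55.6%) fell with all tumours, against 28.4% of all genes. Without obese replicate 3, 9 of 9 fell, where 5107 of 15184 genes were lower. For Ckb, the summed level of 7 smooth muscle and myoepithelial markers was 93.1, 64.3, 72.7 and 100.3 CPM in obese tumours and 605, 3381, 919.9 and 299.8 CPM in lean tumours. Both this sum and Ckb were highest in lean replicate 2. In lean replicate 1 Ckb lay within the obese range (14.6 CPM), although the sum exceeded that of lean replicate 4, where Ckb was 33.9 CPM. The sum in lean replicate 1 came mostly from Krt5 (273 CPM) and Krt14 (213 CPM). Acta2, Cnn1, Myh11 and Oxtr ordered the lean tumours as Ckb did, and Krt5, Krt14 and Des did not. Acta2 held 41.5, 2335, 590.4 and 162 CPM in lean replicates 1 to 4. All markers of these lists were in the file and none was at 0 in every tumour. Beside Gatm, Gamt and Slc6a8, 8 macrophage markers summed to 1603 to 2162 CPM in obese and 1241 to 3356 CPM in lean tumours, and 7 fibroblast markers to 444 to 1553 CPM and 795 to 1042 CPM. These sums overlapped, but single markers moved both ways: of the macrophage markers 3 rose (Mrc1, Cd68 and Adgre1, by log2 fold changes of 2.93, 1.41 and 1.22) and Csf1r fell, and of the fibroblast markers 2 rose (Pdgfrb and Pdgfra) and 3 fell (Dcn, Lum and Thy1). These single markers were named after their values were seen. The shares that rose and fell were 37.5% and 12.5% of the macrophage markers and 28.6% and 42.9% of the fibroblast markers. Over all genes these shares were 30.9% and 28.4%. All 7 lymphocyte markers fell, against 28.4% of all genes. Their sums were 15.2 to 44.8 CPM in obese and 88.6 to 163 CPM in lean tumours. Of 6 neural and glial markers tested, 4 fell (66.7%) and 1 rose (16.7%), against 28.4% and 30.9% of all genes. The summed level of all 7 listed was 30.3 to 64.0 CPM in obese and 77.3 to 234 CPM in lean tumours. The part of these cell types in the differences was not tested.

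**Figure D4:**
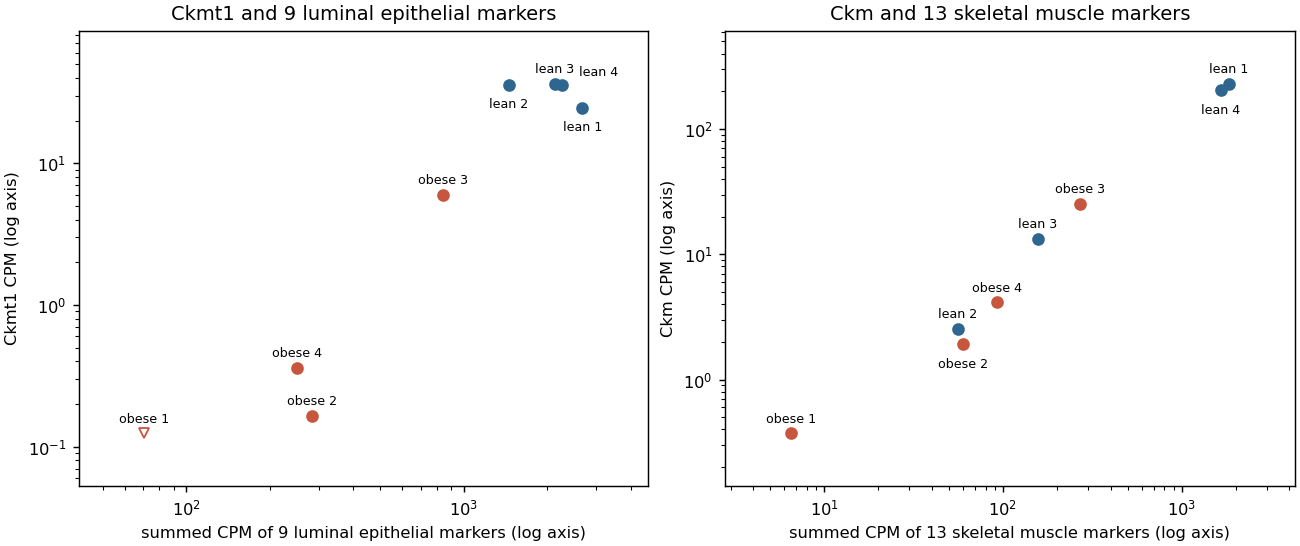
Left, Ckmt1 (CPM, log axis) against the summed CPM of 9 luminal epithelial markers; right, Ckm against 13 skeletal muscle markers; each point is 1 tumour, orange obese and blue lean, and the open triangle is a count of 0 drawn at 0.124 CPM. Obese replicate 3 has the highest Ckmt1 (5.94 CPM) and luminal sum (844 CPM) of the obese tumours.

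The other kinases and 3 further transporters formed a list of 5 genes. Of these, 1 rose and 1 fell (1 and 2 without obese replicate 3), so 40.0% passed the test, against 59.2% of all genes, and the median log2 fold change was -2.78, against -0.04 over all genes tested. Slc6a6, the taurine transporter of the same family as Slc6a8, rose: obese tumours held 384, 603, 237 and 370.2 CPM and lean tumours 80.7, 117, 117 and 93.3 CPM, a log2 fold change of 1.96 ± 0.28 (edgeR adjusted p 0.00120). Obese replicate 2 was highest and replicate 3 lowest for Slc6a6, as for Slc6a8. Slc16a9, of the monocarboxylate transporter family, fell at low level (log2 fold change -1.56 ± 0.58, edgeR adjusted p 0.0456), and lost the call on leaving out obese replicate 1, 2 or 3 or lean replicate 2, 3 or 4 (edgeR adjusted p 0.0660 to 0.102). The Slc16a9 call was also lost with no filter (edgeR adjusted p 0.0619) and by limma-voom with quality weights (adjusted p 0.0539). Slc16a12, a creatine transporter, had a log2 fold change of -2.78 ± 1.20 (edgeR adjusted p 0.0741) and, without obese replicate 3, -5.55 (edgeR adjusted p 0.000146). It also passed with DESeq2 (adjusted p 0.0105), limma-voom (0.00430), quality weights (0.000182) and the GC and length offsets (0.0495).

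Genes that supply arginine and glycine, the substrates of Gatm, or use its ornithine included 17 tested. Of these, 7 rose and 2 fell (8 and 3 without obese replicate 3), with a median log2 fold change of 0.76. In all 52.9% passed the test, against 59.2% of all genes, and 41.2% rose, against 30.9%. Odc1, which turns ornithine into putrescine, rose from 110 ± 51.8 to 1239.5 ± 544 CPM (log2 fold change 3.49 ± 0.46, edgeR adjusted p 0.000846). In serine and glycine synthesis, Shmt2 rose by a log2 fold change of 1.88 ± 0.19 (edgeR adjusted p 0.000321), Psat1 by 2.13 ± 0.45 (0.00543) and Phgdh by 1.13 ± 0.15 (0.000912). Gcsh of the glycine cleavage system rose (0.94 ± 0.21, edgeR adjusted p 0.00669), while its partner Amt fell (-2.66 ± 0.74, edgeR adjusted p 0.0164). Ass1, which makes argininosuccinate, rose by 1.39 ± 0.39 (edgeR adjusted p 0.0169). Of the arginine carriers, Slc7a1 rose (1.42 ± 0.44, edgeR adjusted p 0.0252) and Slc7a2 fell (-3.27 ± 0.99, edgeR adjusted p 0.0226). Slc7a1 lost the call without obese replicate 2 (0.0595) or 4 (0.0534) or lean replicate 1 (0.0667), 3 (0.0682) or 4 (0.0544), and Slc7a2 without obese replicate 1 (0.0558) or 4 (0.0601) or lean replicate 2 (0.0527).

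Genes that supply S-adenosylmethionine, the methyl donor of Gamt, use it or handle its products included 12 tested. Of these, 5 rose and 2 fell (6 and 2 without obese replicate 3), with a median log2 fold change of 0.61. The share that passed, 58.3%, was near the 59.2% of all genes. Mat2a and Mat2b, the catalytic and regulatory subunits of the enzyme that makes S-adenosylmethionine outside the liver, rose by log2 fold changes of 0.87 ± 0.12 (edgeR adjusted p 0.00105) and 1.13 ± 0.14 (0.000554). Mtr, methionine synthase, rose by 1.90 ± 0.19 (edgeR adjusted p 0.000293). Mtrr, which reactivates methionine synthase, rose by 0.79 ± 0.14 (edgeR adjusted p 0.00288). The pair that fell, Gnmt (-2.23 ± 0.65, edgeR adjusted p 0.0191) and Pemt, are other methyltransferases that use S-adenosylmethionine. Gnmt was at low level, with 0.131 ± 0.0963 CPM in obese and 0.659 ± 0.159 CPM in lean tumours. Pemt fell by 1.87 on the log2 scale (edgeR adjusted p 0.0275) and lost the call without obese replicate 1 (0.0679), 2 (0.0704) or 4 (0.0709) or lean replicate 1 (0.0591) or 4 (0.0513).

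**Figure D5:**
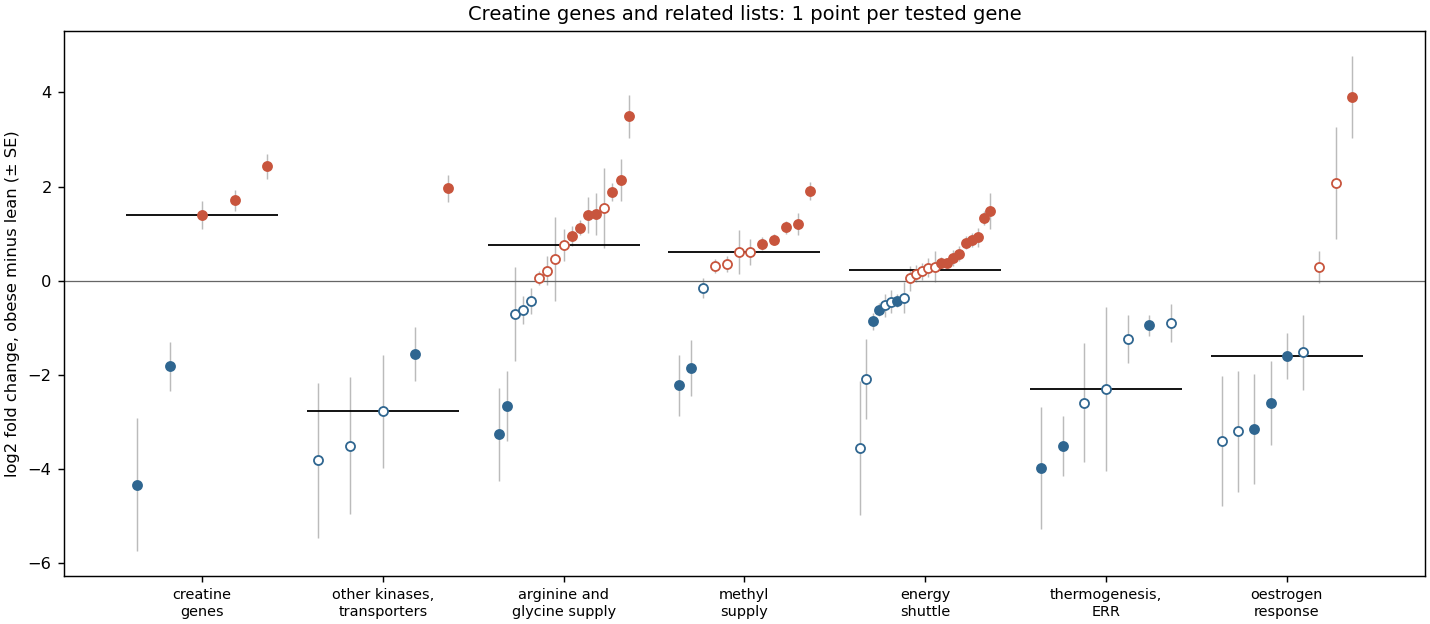
Log2 fold change (obese minus lean, ± SE) of every tested gene of the creatine genes and of 6 related lists, 1 point a gene; filled points passed the test, orange above and blue below 0, and black lines are list medians. The arginine and glycine and the methyl supply lists have medians of 0.76 and 0.61, and the list of thermogenesis and oestrogen-related receptors a median of -2.31. The methyl supply list also holds genes that use the methyl donor.

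Genes that move or sense high-energy phosphate, namely adenylate and nucleoside diphosphate kinases, mitochondrial channels and carriers, and AMPK subunits, included 22 tested. Of these, 9 rose and 3 fell (9 and 5 without obese replicate 3), so 54.5% passed, against 59.2% of all genes, with a median log2 fold change of 0.23; 5 rose under upper quartile scaling, under scaling by library size alone, without lean replicate 3 and without lean replicate 4. Vdac1, the outer membrane channel beside mitochondrial creatine kinase, rose by 0.86 ± 0.15 on the log2 scale (edgeR adjusted p 0.00270). Slc25a3, the phosphate carrier, rose by 0.80 ± 0.14 (edgeR adjusted p 0.00228), and the ADP/ATP carrier Slc25a5 had a log2 fold change of -0.45 ± 0.25 (edgeR adjusted p 0.156). Ak4 rose and Ak3 fell, by log2 fold changes of 1.48 ± 0.39 (edgeR adjusted p 0.0134) and -0.87 ± 0.18 (0.00531). Both are adenylate kinases of the mitochondrial matrix. Of the subunits of the energy sensor AMPK, Prkaa1 rose by 1.33 ± 0.15 (edgeR adjusted p 0.000408) and Prkab2 by 0.92 ± 0.20 (0.00627), while Prkab1 (-0.62 ± 0.14, edgeR adjusted p 0.00642) and Prkag1 (-0.42 ± 0.13, 0.0221) fell. Prkaa2, the other catalytic subunit, had a log2 fold change of -3.56 (edgeR adjusted p 0.0600), and without obese replicate 3 it was -6.40 (edgeR adjusted p 0.000647); it also passed by DESeq2 (adjusted p 0.0213), limma-voom (0.00297), quality weights (0.000201) and with the GC and length offsets (0.0410). Prkag1 lost the call with those offsets (edgeR adjusted p 0.189) and without obese replicate 2 (0.0574) or 4 (0.0701) or lean replicate 1 (0.0566) or 3 (0.0612).

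Genes of thermogenic fat and oestrogen-related receptors, listed together with Alpl, had negative log2 fold changes in all 7 genes tested by edgeR. Of these 7, 3 fell (42.9%, against 28.4% of all genes), with a median log2 fold change of -2.31. Without obese replicate 3, 5 fell (71.4%, where 5107 of 15184 genes were lower) and the median was -4.25. Alpl, an alkaline phosphatase that can split phosphocreatine, held 0.537, 1.57, 33.7 and 1.54 CPM in obese and 115, 122, 168 and 188 CPM in lean tumours, a log2 fold change of -3.98 ± 1.29 (edgeR adjusted p 0.0292). Obese replicate 3 was again the highest obese tumour. Alpl lost the call without obese replicate 2 (0.0597) or 4 (0.0623) or lean replicate 3 (0.0516) or 4 (0.0535), and without obese replicate 3 its log2 fold change was -6.87. Ppargc1a, a coactivator of mitochondrial genes, fell by 3.52 on the log2 scale (SE 0.64, edgeR adjusted p 0.00314). Its level was low, at 0.138 ± 0.119 CPM in obese and 1.67 ± 0.794 CPM in lean tumours. Esrra, an oestrogen-related receptor, fell by 0.95 (SE 0.23, edgeR adjusted p 0.00872).

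Oestrogen receptors and response genes were examined because Ckb is a known oestrogen target. Of 9 tested, 1 rose and 3 fell, with a median log2 fold change of -1.61, and 44.4% passed, against 59.2% of all genes. With all tumours 33.3% fell, against 28.4% of all genes. Without obese replicate 3, 1 rose and 5 fell (55.6%, where 5107 of 15184 genes were lower). The oestrogen receptors Esr2 (edgeR adjusted p 0.0467) and Gper1 (0.0360) fell at low level. Esr2 lost the call on leaving out any 1 tumour other than obese replicate 3. It also lost the call with no filter (edgeR adjusted p 0.0690) and by DESeq2 (adjusted p 0.0594). Gper1 lost the call without obese replicate 1, 2 or 4 or lean replicate 1, 3 or 4. Esr1, the main oestrogen receptor, held 2.60, 1.04, 3.58 and 2.45 CPM in obese and 3.73, 12.1, 7.75 and 5.97 CPM in lean tumours (log2 fold change -1.61 ± 0.49, edgeR adjusted p 0.0218). Lean replicate 2, with the highest Ckb, also had the highest Esr1, and lean replicate 1 the lowest of its group for both. The call of Esr1 was lost without obese replicate 4 (0.0529) or lean replicate 2 (0.0508). Areg, a growth factor of the same response, rose from 0.824 ± 1.03 to 12.3 ± 6.07 CPM (edgeR adjusted p 0.00699).

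The genes whose levels tracked each creatine gene most closely were ranked by Pearson's r of log2 CPM over the 8 tumours among 12357 genes. The 8 points share the division into obese and lean, so r describes mostly that division. Nearest to Gatm were Osbpl3 (r = 0.9977), an oxysterol-binding protein relative, Pira2 (0.9966) and Morc1 (0.9955). Nearest to Gamt were Pdlim1 (0.9983), Kpna4 (0.9980), an importin, and Prkar2a (0.9977), a regulatory subunit of protein kinase A. Among the genes nearest to Slc6a8 were Fbxo42 (0.9978) and Dennd5a (0.9946). Ckb lay nearest to Spon2 (0.9890), Myl9 (0.9774), a smooth muscle myosin light chain, and Olfr558 (0.9732), at lower r than for the other 4 genes. Ckmt1 lay nearest to Palmd (0.9983), Myh14 (0.9981), a non-muscle myosin, and Thnsl2 (0.9978).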

How the data were processed

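RNA was measured in 8 bulk tumours. The deposited file holds raw counts of reads per Ensembl gene, 1 column per tumour. Per the labels' protocols, total RNA came from snap-frozen tumours and libraries from a stranded TruSeq kit. Per the submitters' processing notes, the tools were CASAVA 1.8, bcl2fastq 2.18.0.12, cutadapt 1.12, STAR 2.5.2b and HTSeq with build mm10. The annotation, the strand setting and the HTSeq version are not given in the sources used here, so antisense overlaps cannot be resolved. Of 50143 gene IDs, 49412 had a symbol in GENCODE M21 (GRCm38, 1-based coordinates).

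Genes were kept by edgeR's filterByExpr (minimum count 10, minimum total 15), which left 14887, scaled by TMM and tested with edgeR 4.0.16's quasi-likelihood F test (robust; R 4.3.3) between the 4 obese and 4 lean tumours, with Benjamini-Hochberg adjustment over all tested genes and a threshold of 0.05. Replicate numbers only name tumours. TPM used the union of exon lengths. Likeness used log2 CPM with a prior count of 2. Total counts were 25.7 to 66.7 M, and 3 counts is the limit that a count of 0 allows. The code was tested on simulated data. Alternatives were DESeq2 size factors, upper quartile scaling, no scaling factor, no filter, 1 CPM in 4 tumours, DESeq2 1.42.0, limma 3.58.1 (voom, with and without quality weights), offsets for GC content and exon length (14759 genes, 99.1%), and leaving out each tumour. Named genes were those of pathway lists that passed the test or were among the 3 most abundant of their list, and the 3 genes most like each creatine gene; some genes that this rule names are not reported here. The members and lists were chosen with earlier results of these data known. Promoter sequences are from RefSeq (GRCm38.p6).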

Additional observations from a re-analysis of the deposited data

Results flagged for a closer look

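In each group of 4 tumours, the gap from the highest or lowest tumour to its nearest neighbour was divided by the group's range and set against Dixon's 95% critical value for 4 samples. Of 14 groups (the 5 creatine genes, Ckm and Ckmt2), 3 exceeded it, where chance exceeds it in about 1 in 20 groups. Ckmt1 in obese replicate 3, at 5.94 CPM, stood above the other obese tumours (ratio 0.939). In lean replicate 1, Ckmt1 stood at 24.7 CPM, below the other lean tumours (0.928). Ckm in obese replicate 3, at 25.3 CPM, stood above the other obese tumours (0.849).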

How the results depend on the processing

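No creatine gene changed sign under any of the 17 alternatives, and Gatm, Gamt and Slc6a8 passed the threshold in 17 of 17, with log2 fold changes of 2.21 to 2.68, 1.49 to 2.30 and 1.15 to 1.61. Ckb passed in 16 of 17 and was -1.43 with offsets for GC content and exon length, where the cause of the loss was not tested. Ckmt1 passed in 12 of 17; leaving out 1 tumour at a time gave -7.41 to -3.93, and the call was lost without obese replicate 2 or 4 or lean replicate 2, 3 or 4. With limma-voom Ckmt1 was -6.55, and with quality weights -6.90. Mean Ckb in obese tumours was 12.4 TPM with the longest transcript's length, against 16.2. Of genes called, 52.1% were higher in obese tumours, 41.2% after upper quartile scaling (3612 higher, 5145 lower) and 42.3% after scaling by library size alone. Those scalings moved the median of all genes by -0.21 and -0.19; relative to the median, Gatm was 2.46, 2.46 and 2.47 and Ckb -1.79, -1.78 and -1.80 for TMM and these 2 scalings in turn. Depth limits Ckmt1 in obese tumours, where 3 libraries held 0, 10 and 15 counts.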
